A study of Mus musculus with 36 samples.

Results

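The left ventricle of the adult mouse runs on a fast myosin heavy chain, encoded by Myh6. Its slow paralog, Myh7, is used by the ventricle before birth and returns in adult cardiomyocytes under injury or pressure load. The 131 cells described here are cardiomyocytes that carried Myh7 transcripts 14 days after ischemia-reperfusion (IR). They are the wells of the 3 IR day 14 plates that held at least 1000 UMIs (unique molecular identifiers, each standing for 1 captured transcript; mitochondrial and spike-in UMIs left out), at least 5% of them from 8 cardiomyocyte genes (Myh6, Actc1, Tnnt2, Tnni3, Tnnc1, Myl2, Myl3 and Mb), under 0.6% from 8 endothelial genes, and at least 1 UMI of Myh7. They came from 338 cardiomyocyte wells of those plates, of which 207 held 0 Myh7 UMIs, and from 3146 wells of at least 1000 UMIs in the whole series. The values of Myh7, of the 8 cardiomyocyte genes and of the 8 endothelial genes therefore chose the cells and are given below as a description without a test.

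The labels give all animals as male C57BL/6 mice of 8 weeks, while the study's methods name the substrain C57BL/6 J for wild-type mice with permanent ligation or sham surgery and give a somewhat wider age range for all experiments. IR was a ligation of the left anterior descending artery for 1 hour followed by reperfusion, and sham animals had surgery without it. Besides the 3 plates of IR day 14, the series holds 9 and 7 plates taken 1 and 3 days after IR, 4 and 8 taken 1 and 14 days after sham surgery, and 5 taken 3 days after a permanent ligation (MI, myocardial infarction). Tissue of the infarcted region, or the matching region of sham hearts, was dissociated, and single live cells were sorted by light scatter into the wells of plates for SORT-seq, which counts the 3′ ends of transcripts. A plate was the replicate. Which mouse a plate came from was not stated in the sources used here, so p-values measure the spread between plates.

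Nuclear UMIs per plate, summed over all wells, ranged from 513318 to 1076066 at IR day 14. The 3 plates held 174, 71 and 93 cardiomyocyte wells. Of the sham day 14 plates, replicates 2 and 7 held the same wells (r of log depth = 0.902 over wells, and a median r of 0.817 between the profiles of 35 shared wells), and they were counted as 1 plate by their mean. Among 102 pairs of plates that include an IR day 14 plate, the highest correlation of well depth was 0.297 and the highest median correlation of well profiles was 0.541. All plates use the same set of well barcodes by design.

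Myh7 and Myh6 lie head to tail on the minus strand of chromosome 14 (GRCm38), Myh7 at chr14:54970684-54994626 and Myh6 at chr14:54941921-54966927, with 3756 bases between them. The antisense RNA Mhrt, at chr14:54968678-54974349, shares 3666 bases with Myh7 and was not among the rows of the tables. Both myosins are read from their 3′ ends here, and those ends are alike: of 426 windows of 75 bases, the read length, in the last 500 bases of transcript Myh7-201 (GENCODE M21), 99 occurred exactly in Myh6 transcripts and 237 (55.6%) did so with at most 3 mismatches. In the last 200 bases 2 windows did. In the other direction, which could add reads of Myh6 to Myh7, 143 of 426 windows of Myh6-201 occurred exactly in Myh7 transcripts and 283 (66.4%) did so with at most 3 mismatches, 48 of them in the last 200 bases. How reads that match both genes were assigned is not given in the sources used here. A measured bound exists: sham day 14 replicate 8 held 2099 Myh6 UMIs and 0 Myh7 UMIs in 49 cardiomyocyte wells, which allows at most 0.143% of Myh6 UMIs to have been read as Myh7 there (3 counts for a count of 0, counting error only). The ends of the coding sequences, stop codon included, show a long identical run and a short stretch that tells the pair apart. They were aligned with gaps (Biopython 1.88), and capitals mark the bases that differ or have no partner, 8 of 57 in Myh7 and 11 of 60 in Myh6.
Myh7-201: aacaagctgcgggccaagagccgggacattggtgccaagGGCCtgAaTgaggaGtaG
Myh6-201: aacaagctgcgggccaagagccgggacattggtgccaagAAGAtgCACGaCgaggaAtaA

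The natriuretic peptide gene Nppa, at chr4:148000722-148002079, had the largest difference between cells with and without Myh7 among the named genes outside the rule (below), and its promoter is therefore shown with those of both myosins. RefSeq sequences (GRCm38.p6) of the 250 bases before the start are printed 5′ to 3′ for Nppa (chr4:148000472-148000721, plus strand), Myh7 (chr14:54994627-54994876, minus strand) and Myh6 (chr14:54966608-54966857, minus strand). The start is that of RefSeq: GENCODE has a Myh6 transcript that starts further upstream, so by the GENCODE span given above the Myh6 window lies inside the gene. Capitals mark, on either strand, TATAAA (the TATA box), CATTCC (the MCAT element, bound by TEAD factors), GATAA (bound by GATA factors) and AGGTCA (the half-site of nuclear receptors such as the thyroid hormone receptor).
Nppa: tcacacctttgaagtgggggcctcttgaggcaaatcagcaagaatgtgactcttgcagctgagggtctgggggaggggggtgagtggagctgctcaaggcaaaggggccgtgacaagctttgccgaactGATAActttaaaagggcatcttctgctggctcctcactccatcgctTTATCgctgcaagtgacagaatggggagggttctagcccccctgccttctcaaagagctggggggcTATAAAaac
Myh7: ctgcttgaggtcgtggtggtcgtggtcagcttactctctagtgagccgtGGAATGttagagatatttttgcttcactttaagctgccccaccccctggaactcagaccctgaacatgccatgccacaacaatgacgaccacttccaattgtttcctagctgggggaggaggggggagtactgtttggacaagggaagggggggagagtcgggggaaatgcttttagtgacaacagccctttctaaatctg
Myh6: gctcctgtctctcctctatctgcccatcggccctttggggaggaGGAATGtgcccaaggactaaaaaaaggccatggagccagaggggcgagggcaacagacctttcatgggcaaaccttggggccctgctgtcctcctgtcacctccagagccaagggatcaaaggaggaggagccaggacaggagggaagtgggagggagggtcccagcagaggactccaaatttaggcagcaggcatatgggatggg
Nppa held 1 TATAAA and 2 GATAA matches, and each myosin held 1 CATTCC match. The window of Nppb, the gene beside Nppa, is not printed and held 1 TATAAA, 2 GATAA and 1 CATTCC match. No AGGTCA was found in any of these windows, nor any of the 4 motifs before the second RefSeq start of Myh7 (chr14:54994550-54994799). Of 32851 mouse promoter windows of 250 bases, 12.4% held TATAAA, 12.6% CATTCC, 22.6% GATAA and 14.0% AGGTCA, so such matches are common.

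Myh6, Tnnt2 (cardiac troponin T) and Myl2, the ventricular regulatory light chain, are genes of the rule, and as a description all 131 wells held UMIs of each, with 7348 Myl2 UMIs in all. Among genes that the rule did not use, the light chain Myl7 and the calcium pump inhibitor Sln, both known for the atrium, had 0 UMIs, the atrial and fetal light chain Myl4 had 1, and the fetal troponin Tnni1 had 0. The wells held 1010 to 41147 UMIs with a median of 2702, from a median of 996 genes (range 411 to 5697). Cardiomyocyte genes of the rule made up 5.13% to 13.8% of UMIs with a median of 8.73%. The highest mean levels over plates among protein-coding genes were those of Ttn (the giant sarcomere spring titin), Myh6, Atp2a2 (the calcium pump SERCA2) and Mb (myoglobin). Levels are given throughout as UMIs per 10000 UMIs, and since each transcript is counted once at its 3′ end they were not divided by length. Ttn stood at 290, 496 and 412 and Myh6 at 255, 367 and 237 per 10000 in the Myh7-positive wells of replicates 1, 2 and 3.

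Transcripts that mark other cells of the heart were few beside the 86729 UMIs of the cardiomyocyte list, but fibroblast UMIs outnumbered the 830 of Myh7. Over the 131 wells there were 933 UMIs of 10 fibroblast genes (Tcf21 at 0), 237 of 7 mural and smooth muscle genes (Cnn1 at 0), 149 of 10 endothelial genes, 68 of 5 neutrophil genes (all from Cxcr2, with S100a8, S100a9, Retnlg and Csf3r at 0), 41 of macrophage genes (Lyz2 at 0), 17 of erythrocyte genes, 3 of T or NK cell genes and 0 of B cell genes. The summed fibroblast level ranged from 3.79 to 31.04 per 10000 over the 3 plates, against 5.63 to 18.7 in the wells without Myh7. The endothelial level ranged from 2.15 to 3.61, against 3.39 to 5.02. The cardiomyocyte list stood at 1430 to 1688, against 1328 to 1445.

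Wells lay close to both sides of the thresholds on depth and cardiomyocyte share, and not of that on endothelial share. The shallowest of the 131 wells held 1010 UMIs, and 56 wells that met every other criterion lay under 1000, the deepest with 997. The lowest cardiomyocyte share inside was 5.13% and the highest outside was 4.97%, among 21 wells left out on that criterion alone. The highest endothelial share inside was 0.477%, and the 1 well left out had 0.815%. On the Myh7 threshold itself, 57 wells held 1 UMI and 207 held 0.

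Myh7 was unevenly spread among the cells. In all, 830 Myh7 UMIs were counted against 15744 of Myh6, with 282, 192 and 356 on replicates 1, 2 and 3. A single UMI was found in 57 wells (43.5%), 2 or 3 in 33 wells, 4 to 9 in 21 wells and 10 or more in 20 wells. These last 20 wells carried 71.3% of all Myh7 UMIs. The well with the most, on replicate 2, had 144 UMIs, which was 75% of that plate's total, beside 460 UMIs of Myh6. On replicates 1 and 3 the highest wells had 61 and 54. Relative to all transcripts, Myh7 stood at 11.3, 16.9 and 16.3 per 10000 in the Myh7-positive wells of the 3 plates, and ranked 112, 59 and 52 among all genes there. On replicate 2 most of this level came from the well with 144 UMIs.

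**Figure D1:**
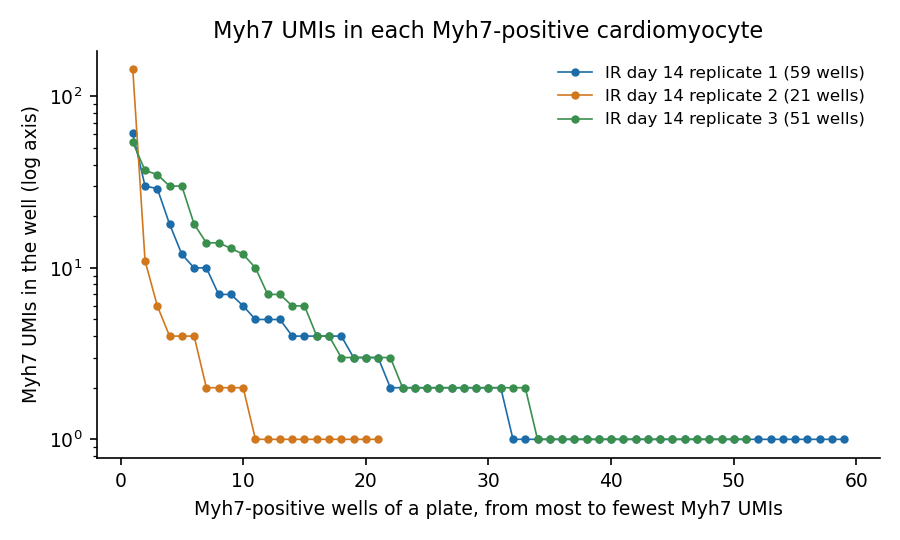
Myh7 UMIs (vertical log axis) in each of the 131 Myh7-positive wells, ranked within each IR day 14 plate from most to fewest (horizontal axis). Each curve is 1 plate and each point 1 well. Counts fell from 61, 144 and 54 in the highest wells to a long run of wells with 1 UMI.

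Cells that held more Myh7 than Myh6 were rare. The share of Myh7 in the UMIs of both myosins had a median of 3.57% over the 131 wells and ran from 0.153% to 81.1%. It exceeded 10% in 29 wells and 50% in 2 wells, both on replicate 3. In these, 30 Myh7 UMIs stood beside 7 of Myh6 (81.1%) and 30 beside 13 (69.8%). Pooled over wells, the share was 4.23%, 4.41% and 6.42% on the 3 plates. With the plates pooled, Myh6 per 10000 UMIs was about as high in the class richest in Myh7 as in wells without it, and decreased in between from the class with 1 UMI on: it was 253 in wells without Myh7, 295 with 1 UMI, 260 with 2 or 3, 255 with 4 to 9 and 252 with 10 or more. Within plates the order differed. From wells without Myh7 to those with 10 or more, Myh6 went from 252 to 190 on replicate 1, from 319 to 557 on replicate 2 and from 192 to 198 on replicate 3.

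How common such cells were in each condition is described over plates. Deeper wells have more chance to show a rare transcript, so each well was thinned to 1000 UMIs by calculation and the expected share of wells with a Myh7 UMI was taken on plates with at least 10 cardiomyocyte wells. Without thinning, the share at IR day 14 was 33.9% on replicate 1 (95% exact binomial interval 26.9 to 41.5, counting error only), 29.6% on replicate 2 (19.3 to 41.6) and 54.8% on replicate 3 (44.2 to 65.2). After thinning it was 19.8%, 17.6% and 37.4%. The mean was 24.9% ± 10.9 (SD, n = 3) at IR day 14 and 4.20% ± 3.06 (SD, n = 4) at sham day 14, where the plates lay between 0% and 7.14%. Every IR day 14 plate lay above every sham day 14 plate. The difference was 20.7 points. Since a Myh7 UMI is what chose the cells, these shares are a description and no test of them is given.

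The other conditions lay between these or above. Sham day 1 stood at 14.7% ± 3.599 (SD, n = 4), and its highest plate, with 20.1%, overlapped the lower IR day 14 plates. IR day 3 stood at 30.2% ± 8.55 (SD, n = 4), and IR day 14 minus IR day 3 was -5.29 points, with overlapping plates. The sign of that last difference was not stable: at 2 or more Myh7 UMIs IR day 14 was higher by 0.044 points, and with all plates of at least 1 cardiomyocyte well it was higher by 2.10 points. The level of Myh7 over Myh7-positive wells was 7.93 to 29.4 per 10000 at IR day 3, 4.51 to 12.3 at sham day 1, and 2.75 and 1.71 on the 2 sham day 14 plates with at least 5 such wells.

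Free RNA in a plate can put a transcript into a cell that does not make it, and Myh7 UMIs were also counted in wells outside the cardiomyocyte class on the same plates. At IR day 14, 10 of 47 endothelial wells (21.3%, median depth 3063 UMIs) and 32 of the 138 wells outside the cardiomyocyte class (23.2%, median 4066) held a Myh7 UMI, against 38.8% of cardiomyocyte wells (median 2319). After thinning these shares were 9.21%, 10.2% and 24.2%. They differed by plate: endothelial wells stood at 9.07%, 12.8% and 3.95% on replicates 1, 2 and 3, against 19.8%, 17.6% and 37.4% of cardiomyocyte wells. Per 10000 UMIs, Myh7 stood at 0.758 in endothelial wells, 1.55 in all wells outside the class and 7.35 in cardiomyocyte wells. Myh7 made up 3.20%, 4.45% and 2.73% of the UMIs of both myosins in these classes. The cell type of the 138 wells was not tested. Of them, 86 were low in both the cardiomyocyte and the endothelial genes. These 86 held 98 of the 119 Myh7 UMIs outside the class, in 21 wells that missed the cardiomyocyte threshold alone. Nppa in the 86 wells stood at 58.3 per 10000, against 47.3 in the cardiomyocyte class and 1.52 in endothelial wells. By plate it was 41.2, 3.06 and 79.9 on replicates 1, 2 and 3. A well that owes its place to 1 Myh7 UMI cannot be told apart, on its own, from a well that took up a free transcript. Thinned shares in endothelial wells of the other groups were 0.458% at sham day 1, 1.84% at sham day 14 (replicates 2 and 7 both counted) and 2.69% at IR day 3.

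**Figure D2:**
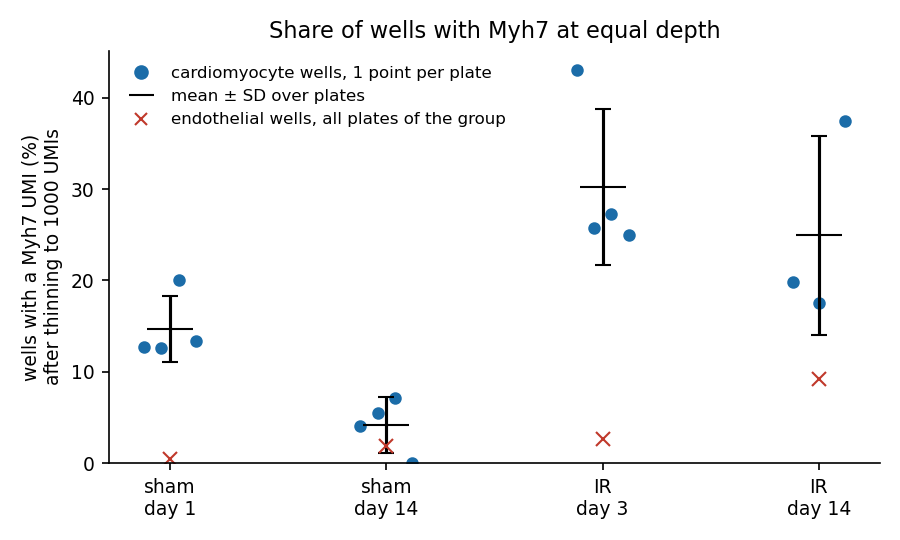
Share of cardiomyocyte wells with a Myh7 UMI after thinning to 1000 UMIs (vertical axis, %), by condition (horizontal axis). Points are plates, bars the mean ± SD over plates, and crosses the same share in endothelial wells pooled over the plates of a condition. IR day 14 plates lie at 19.8%, 17.6% and 37.4%, above the sham day 14 plates (0% to 7.14%), while endothelial wells of IR day 14 stand at 9.21%.

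Which other genes went with Myh7 was asked within plates. Each Myh7-positive well was paired with a well of the same plate that held 0 Myh7 UMIs and differed in depth by at most 1.2-fold. This gave 56, 15 and 37 pairs on replicates 1, 2 and 3, and 3, 6 and 14 Myh7-positive wells found no partner. Counts were summed per plate and class, and 964 genes outside the rule were tested (edgeR quasi-likelihood test with the plate as a block). At IR day 14 the test called 0 of them (0% of genes tested) at an adjusted p under 0.05. At an unadjusted p under 0.05 there were 17 genes, 7 higher and 10 lower, and DESeq2 also called 0. The median log2 fold change over all genes was 0.02.

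Nppa, which encodes atrial natriuretic peptide and is switched on in the stressed ventricle, had the largest difference of the named genes and the smallest p. Its level was 90.9 per 10000 in Myh7-positive wells against 9.84 in their partners on replicate 1, 10.1 against 3.44 on replicate 2, and 186 against 12.9 on replicate 3. In these matched wells the positive ones were higher on 3 of 3 plates, and the lowest positive plate lay inside the range of the negative ones. Over all wells, without matching, the order turned on replicate 2, with 3.52 against 12.7, while replicates 1 and 3 had 89.8 against 8.92 and 114 against 13.4 (log2 fold change 1.92). The log2 fold change was 3.09 ± 0.69 (SE), with an adjusted p of 0.0594 by edgeR's quasi-likelihood test, short of the threshold. Myh7, whose difference the rule fixed, stayed in the adjustment here and in the alternatives. In the main fit it made this adjusted p of Nppa smaller than an adjustment without Myh7 would give. Over 15 alternatives the log2 fold change stayed between 1.84 and 3.47 and 7 of them called Nppa, with adjusted p from 7.29e-21 to 1. Calls came, among others, with pairs within 1.5-fold in depth, with wells of at least 2 Myh7 UMIs and with pairs matched on mitochondrial share, where the value was lowest. DESeq2 gave 2.90 and did not call it, and without replicate 3 it stood at 2.62 and was not called.

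The Nppa difference was carried by a minority of wells. The highest well gave 31%, 36.1% and 41.8% of the Nppa UMIs of the paired positive wells on replicates 1, 2 and 3. The share of wells with any Nppa, thinned to 1000 UMIs, was 58.8% against 30.2%, 40.3% against 14.4% and 73.4% against 57.7%. Among all cardiomyocyte wells of IR day 14, at least 10 Nppa UMIs were found in 35 of 131 wells with Myh7 (26.7%) and in 10 of 207 without (4.83%). By plate these were 18 of 59 against 5 of 115, 2 of 21 against 3 of 50, and 15 of 51 against 2 of 42. Wells with Myh7 held 89.3% of all Nppa UMIs in the class, 88.1% on replicate 1, 23.4% on replicate 2 and 94.7% on replicate 3. The pattern was thus seen on replicates 1 and 3, while on replicate 2 most Nppa lay in wells without Myh7.

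With plates pooled, Nppa was higher in each class of wells with more Myh7 UMIs. It stood at 10.5 per 10000 in wells without Myh7, 23.1 with 1 UMI, 82.6 with 2 or 3, 93.2 with 4 to 9 and 191 with 10 or more. Over the same classes the median mitochondrial share was 80.1%, 75.97%, 74.04%, 68.6% and 66.03%, and the median depth 2211, 2110, 2005, 2702 and 4948.5 UMIs, and their part in this order was not tested. No single plate showed this order throughout. Over the same 5 classes Nppa was at 8.92, 34.7, 136, 56.8 and 157 on replicate 1, at 13.4, 21.7, 17.3, 171 and 318 on replicate 3, and at 12.7, 2.17, 12.7, 3.95 and 0 on replicate 2, where the last class held 2 wells. The relation between the 2 genes was loose from cell to cell. Of the 20 wells with 10 or more Myh7 UMIs, 11 had at least 10 of Nppa and 4 had none, including the well with 144 Myh7 UMIs. Of the 35 wells rich in Nppa, 8 held 1 Myh7 UMI. Both wells with more Myh7 than Myh6 had Nppa, with 107 and 77 UMIs.

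**Figure D3:**
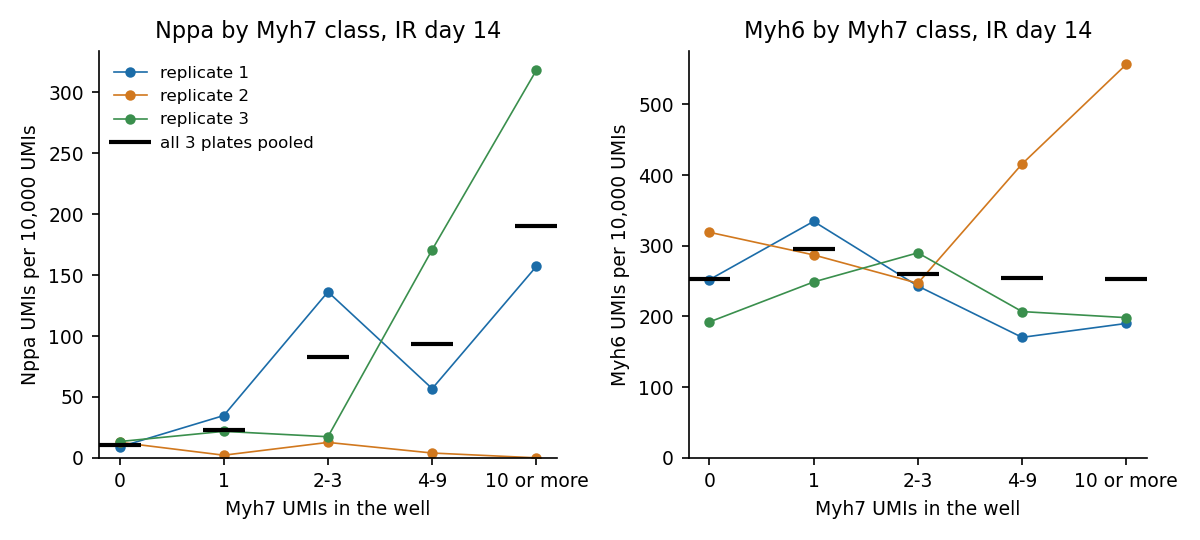
Nppa (left) and Myh6 (right) per 10000 UMIs (vertical axes) in cardiomyocyte wells of IR day 14 grouped by their number of Myh7 UMIs (horizontal axes). Coloured lines are the 3 plates and black bars all wells pooled. Pooled Nppa goes from 10.5 to 191 while pooled Myh6 goes from 253 to 252, and replicate 2 departs from the other plates in both panels.

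The other genes of the fetal and hypertrophic program did not pass the test. Ankrd1, a stretch-responsive cofactor of the sarcomere and nucleus, was at 50.6 per 10000 against 23.03 on replicate 1, 34.1 against 45.2 on replicate 2 and 69.5 against 21.3 on replicate 3 (log2 fold change 0.83 ± 0.34 SE, edgeR adjusted p = 0.998; 0.39 without replicate 3, 1.36 without replicate 2 and 0.38 in pairs matched on mitochondrial share). Xirp2, an actin-binding protein of the intercalated disc, was higher on 3 of 3 plates with 25.95 against 20.1, 33.2 against 23.5 and 47.1 against 23.8 (0.61 ± 0.33, edgeR adjusted p = 0.998; 0.19 with mitochondrial matching and 1.00 with at least 2 Myh7 UMIs). Nppb, the gene of brain natriuretic peptide and the neighbour of Nppa at chr4:147985788-147987205, had 5.58 against 3.68, 5.64 against 19.2 and 18.6 against 5.04 per 10000 (log2 fold change 0.37 ± 0.44, from -0.44 without replicate 3 to 1.18 without replicate 2). Acta1, skeletal actin, was at 8.43 against 4.62, 4.51 against 15.5 and 10.3 against 7.20 per 10000 (log2 fold change 0.02 ± 0.45, from -0.50 without replicate 1 to 0.64 without replicate 2, and 0.85 in pairs matched on mitochondrial share). Clu, the chaperone clusterin, was at 39.96 against 24.1, 36.6 against 59.5 and 42.7 against 18.3 (0.43 ± 0.30, from 0.04 without replicate 3 to 0.92 without replicate 2). For Ankrd1, Nppb, Acta1 and Clu replicate 2 lay on the other side from replicates 1 and 3. Of 22 genes on the list 10 could be tested: 9 had a positive log2 fold change with a median of 0.36, 3 were higher on all 3 plates (10.6% of all genes tested were) and 0 lower (9.54% of all genes were). The list was drawn up with earlier results of these data known. Its summed level was 216 against 94.1 per 10000, 126 against 147 and 371 against 103, so replicate 2 again went the other way. These counts and sums include Nppa, which alone stood at 90.9 against 9.84, 10.1 against 3.44 and 186 against 12.9. They are therefore not separate from the Nppa result above. The list of injured cardiomyocyte markers, which holds Clu, had 6 of 9 positive and a median of 0.20, with 1 gene higher on all 3 plates and 0 lower.

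Of 6 myosin genes tested, 5 had a positive value, with a median of 0.19, and 1 each was higher or lower on all 3 plates, where 10.6% of all genes tested were higher and 9.54% lower. Myh7b, a further slow-type heavy chain on chromosome 2, had 32 UMIs against 13 on replicate 1, 0 against 0 on replicate 2 and 22 against 1 on replicate 3 (log2 fold change 2.07 ± 1.06, edgeR adjusted p = 0.998). Its log2 fold change was 1.06 in pairs matched on mitochondrial share and 1.17 with at least 2 Myh7 UMIs. Of 17 genes of the sarcomere and Z-disc tested, 13 had a positive value, with a median of 0.19, and 5 were higher on all 3 plates while 0 were lower, against the same 10.6% and 9.54% of all genes. Myom2, an M-band protein, was at 9.05 against 7.80, 13.2 against 6.58 and 7.33 against 4.22 per 10000 (0.61 ± 0.27, edgeR adjusted p = 0.998). Nrap and Pdlim5, proteins of myofibril assembly and the Z-disc, had log2 fold changes of 0.58 ± 0.34 and 0.47 ± 0.28. Ttn had 0.35 ± 0.28. None of the sarcomere list passed the adjusted threshold.

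Calcium handling and fuel use showed little difference. Of 11 calcium handling genes tested, 5 had a positive log2 fold change, and the median was 0.00. Atp2a2 had 248 against 240.3, 201 against 230.5 and 164 against 145 per 10000, and its log2 fold change was 0.00 ± 0.25. Ryr2, the calcium release channel, had -0.09 ± 0.29, and Pln, the inhibitor of Atp2a2, -0.10 ± 0.26. Of 20 fatty acid oxidation genes tested, 10 were positive with a median of 0.01. The glycolysis list had 9 of 15 positive and a median of 0.01. Pdk4, which holds back glucose oxidation, had -0.03 ± 0.45, and the fatty acid importer Cpt1b had 0 UMIs in the paired wells.

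Nuclear-encoded subunits of the respiratory chain lay mostly on the low side. Of 75 tested, 16 had a positive log2 fold change, the median was -0.18, and 21 were lower on all 3 plates against 1 higher. Over all genes 9.54% were lower on all 3 plates and the median was 0.02. The smallest p belonged to Ndufc1, a subunit of complex I, with 5.07 against 6.81, 4.51 against 6.58 and 3.62 against 6.59 per 10000 (log2 fold change -0.62 ± 0.29, edgeR adjusted p = 0.998). By plate the summed level was 787 against 865 and 625.3 against 808 on replicates 1 and 3, but 859 against 807 on replicate 2. The mitochondrial share of all UMIs was lower on all 3 plates, also on replicate 2 where the summed respiratory chain level was higher: its median was 73.99% in Myh7-positive wells against 78.4% in their partners, 74.4% against 79.2% and 72.5% against 79.8%. That difference of -5.50 points ± 1.54 (SD over 3 plates) had the same sign on 3 of 3 plates, and its exact sign-flip p of 0.25 is the smallest that 3 plates can give. In pairs matched on mitochondrial share as well the list's median was -0.17. Depth, genes per well and the spike-in ratio differed in both directions between plates. Of the 67 ribosomal protein genes tested, 23 were positive, with a median of -0.11 and 2 genes each higher or lower on all plates. Their plates disagreed: the summed level was 226 against 201 and 196 against 144 on replicates 1 and 2, but 155 against 257 on replicate 3.

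Genes that lay apart in the same direction on all 3 plates, without passing the adjusted threshold, included Prune2 (log2 fold change 0.99 ± 0.47), Emc10 of the endoplasmic reticulum membrane complex (1.05 ± 0.52) and Dmpk, the kinase gene of myotonic dystrophy (0.66 ± 0.33), all with higher values in Myh7-positive wells. On the low side were Gsn (-1.31 ± 0.52), Dcn (-1.20 ± 0.47), the potassium channel subunit Kcng2 (-0.86 ± 0.39), Gm10845 (-0.69 ± 0.32) and Fem1a (-0.83 ± 0.39). Gsn, the actin-severing gelsolin, and Dcn, the matrix proteoglycan decorin, are both on the fibroblast list. Dcn was at 1.91 against 5.66, 0.282 against 1.15 and 1.90 against 2.78 per 10000. The fibroblast list, summed over all wells, stood at 8.39 with Myh7 against 18.7 without on replicate 1, 3.79 against 5.63 on replicate 2 and 31.04 against 15.7 on replicate 3. The part of fibroblast RNA in these 2 genes was not tested. Both differences were smaller outside the matched pairs: over all wells Gsn had 240 UMIs with Myh7 and 233 without, and Dcn 153 and 183, with log2 fold changes of -0.24 and -0.39, and in pairs within 1.5-fold they were -0.04 and -0.41. With mitochondrial matching Gsn stood at -0.18. With wells above 0.1% fibroblast UMIs left out, an alternative chosen after seeing the data, Nppa was the 1 gene called.

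**Figure D4:**
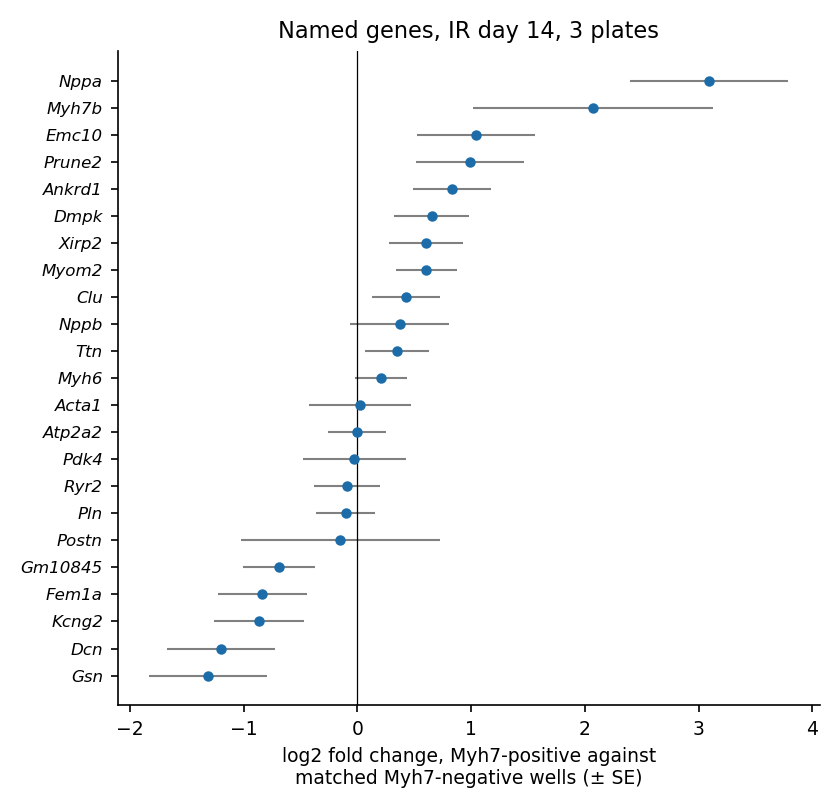
Log2 fold change of the named genes that could be tested (horizontal axis, points, with SE as bars) between Myh7-positive wells and depth-matched wells without Myh7 on the 3 IR day 14 plates. Myh6 belongs to the rule and is shown as a description. Nppa stands at 3.09 ± 0.69, followed by Myh7b at 2.07 ± 1.06, and Gsn is lowest at -1.31 ± 0.52.

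The same contrast was fitted in the other conditions. At sham day 14, with 9 and 5 pairs on 2 plates, Nppa was called (1 gene of 964, 0.104%; log2 fold change 6.58 ± 1.16, edgeR adjusted p = 0.0044). There it stood at 82.8 against 0.338 per 10000 on replicate 1 and 47.7 against 1.05 on replicate 5, but a single well gave 95.3% and 99.3% of the Nppa UMIs of the positive wells, and the call was lost without the plate block (adjusted p = 0.782) and without matching (adjusted p = 0.395). Over 13 alternatives Nppa was higher in all, 11 called it, and the log2 fold change ran from 2.34 with mitochondrial matching to 10.79 with wells thinned to 1000 UMIs (edgeR adjusted p from 7.60e-31 to 0.782). At IR day 3 no gene was called (0%; 22 genes at an unadjusted p under 0.05), and DESeq2 called 0. Nppa was at 44.7 against 27.8, 17.8 against 44.2 and 64.2 against 72.9 per 10000 there (log2 fold change -0.15). At sham day 1 the 1 gene called (0.104%) was the hemoglobin transcript Beta-s, which was lower, and neither DESeq2 nor the fit without the plate block called any gene (0 in each). There the positive plates ranged from 0.379 to 23.4 per 10000 for Nppa against 0.991 to 137.

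Whether the contrast itself differed between IR day 14 and sham day 14 was tested in the same fit. No gene was called (0%; 34 at an unadjusted p under 0.05, and 0 by DESeq2). For Nppa the difference was -3.49 on the log2 scale (edgeR adjusted p = 0.998). It was called in 3 of 15 alternatives, with no filter on low counts, with wells of at least 2000 UMIs and without sham day 14 replicate 5 (-4.88), which leaves 1 sham day 14 plate that is assumed to vary like the other groups, and it was -0.50 in pairs matched on mitochondrial share. Without sham day 14 replicate 1 it was -2.35 and not called.

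**Figure D5:**
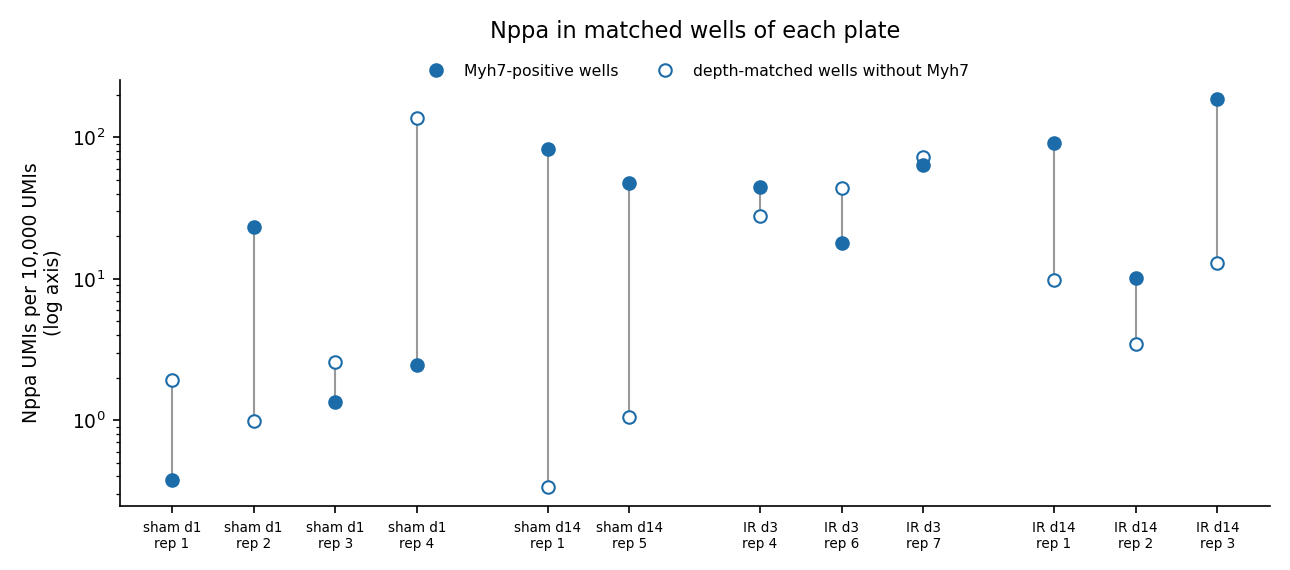
Nppa per 10000 UMIs (vertical log axis) in Myh7-positive wells (filled) and their depth-matched partners without Myh7 (open) on each plate with at least 5 pairs (horizontal axis); lines join the 2 classes of a plate. Filled points lie above open ones on all 3 IR day 14 plates and both sham day 14 plates, on 1 of 4 sham day 1 plates and on 1 of 3 IR day 3 plates.

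Last, Myh7-positive wells of IR day 14 (3 plates) were compared with those of sham day 14 (2 plates with at least 5 such wells, 10 and 6 wells). Depth was not matched here, and the Myh7-positive wells had median depths of 3360, 2039 and 2167 UMIs at IR day 14 against 4818 and 6937.5 at sham day 14. The part of depth in these differences was not tested. Of 1616 genes outside the rule, 1 was called (0.0619%): Beta-s was lower, at 0.320, 0.176 and 0.320 per 10000 against 2.12 and 14.0 (log2 fold change -4.71 ± 0.66, edgeR adjusted p = 0.000461). That call was lost against both sham groups together (edgeR adjusted p = 0.114), with a replicate block (0.199), with at least 10 wells per plate (0.110) and without sham day 14 replicate 5 (0.143, log2 fold change -2.83). At an unadjusted p under 0.05 there were 113 genes, 54 higher and 59 lower. Of the genes tested, 14.2% were higher at IR day 14 with no overlap between the plates of the groups and 8.73% were lower. Ankrd1 stood at 46.1, 25.4 and 42 per 10000 at IR day 14 and at 9.53 and 12.2 at sham day 14, and the groups did not overlap (log2 fold change 1.76 ± 0.40, edgeR adjusted p = 0.106). Xirp2 did not overlap either, with 25.3, 30.4 and 31.5 against 10.4 and 8.57 (1.56 ± 0.45, edgeR adjusted p = 0.414), nor did Clu, with 47.4, 23.7 and 32.8 against 13.1 and 14.9 (1.26 ± 0.40, edgeR adjusted p = 0.414). Ankrd1 and Xirp2 were also apart in the wells without Myh7 that served as partners in the paired contrast: Ankrd1 stood at 23.03, 45.2 and 21.3 against 6.09 and 13.7, and Xirp2 at 20.1, 23.5 and 23.8 against 6.77 and 13.3, so the gap was not limited to Myh7-positive wells. Clu overlapped there, with 24.1, 59.5 and 18.3 against 15.2 and 19.7. Nppa overlapped widely in the Myh7-positive wells, with 89.8, 3.52 and 114 against 53.6 and 34.04 (0.56 ± 1.11, edgeR adjusted p = 0.951). Of 14 tested genes of the fetal and hypertrophic list, 10 were positive with a median of 0.66, against a median of -0.03 over all genes. The Myh7-positive wells of sham day 14 were few, so these values rest on 16 sham cells.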

How the data were processed

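UMI counts per gene and well of 36 plates were used as deposited. Per the labels and the study's methods, the authors sequenced SORT-seq libraries with UMIs of 6 bases as paired 75-base reads, mapped them with BWA-ALN to GRCm38/mm10, and counted UMIs per gene and well; the BWA version, the annotation and the use of strand are not given in the sources used here. The deposited counts were whole numbers up to 4096, the number of possible UMIs. Mitochondrial and spike-in rows were left out of all depths, and Rn45s also of levels and tests. No doublets were called.

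Groups came from the sample titles. The 131 members, the 12 gene lists and the tests were chosen with earlier results of these data known. UMIs of depth-matched wells were summed per plate and class (24 sums of 6691 to 137147 UMIs on plates with at least 5 pairs) and tested in 1 model of 4 groups (quasi-likelihood F test of edgeR 4.0.16 in R 4.3.3, plate as block, TMM scaling, genes kept by filterByExpr), with Benjamini-Hochberg adjustment over all genes. Of the 974 genes in this fit, 10 belong to the rule and stayed in the adjustment. Among them Myh7, which chose the cells, lowered the adjusted p of Nppa at IR day 14. Myh7-positive wells were fitted without a block. On simulated counts of the paired fit (974 genes), 33 of 100 genes changed 2-fold and 90 of 100 changed 4-fold were recovered, with 4 calls among 774 unchanged genes. In the fit of Myh7-positive wells (1626 genes), 10 of 100 and 72 of 100 were. These simulations gave all genes the same spread and no differences between plates. The rates therefore do not cover genes with a wider spread in the real counts, such as those carried by few wells. Named genes were a fixed list of 22 (21 in the tables), up to 5 per direction with the smallest p among those alike on every plate, and up to 4 per list. Deviations of same-numbered plates from their group means had r from -0.32 to 0.09. With so few plates per group this cannot settle whether numbers pair plates across groups, and no pairing was assumed. The sign-flip test enumerated all signs over plates. An exact permutation test of the share of wells with Myh7 (scipy 1.17.1) was planned and run, and its p-values are not given because Myh7 chose the cells. Alternatives covered scaling (RLE), DESeq2 1.42.0, filters, matching and single plates left out. Positions are from GENCODE M21.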

Additional observations from a re-analysis of the deposited data

Results flagged for a closer look

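In several sets of 4 plates 1 plate lay far from the others, judged by its gap to the nearest plate relative to the range. Shares of wells with Myh7 are given here as a description, since Myh7 chose the cells. On IR day 3 replicate 4, the thinned share of cardiomyocyte wells with a Myh7 UMI was 42.98%, with the other 3 plates at 24.96% to 27.2%. On sham day 1 replicate 3 it was 20.1%, with the others at 12.6% to 13.4%. Nppa on sham day 1 stood apart in the Myh7-positive wells of replicate 2, at 23.4 per 10000, and in the wells without Myh7 of replicate 4, at 137 per 10000, where 1 well gave 220 of 222 UMIs. Chance marks about 1 in 20 sets in this way.

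Wells outside the cardiomyocyte class at IR day 14 held a Myh7 UMI in 10.2% of 138 wells after thinning. The share was 1.41% at sham day 14 (replicates 2 and 7 both counted), 3.19% at sham day 1 and 8.26% at IR day 3. Of the 138 wells of IR day 14, 86 were low in both the cardiomyocyte and the endothelial genes. On the MI day 3 plates, which entered no test, the thinned share of cardiomyocyte wells with Myh7 was 9.29% (5 of 11 wells without thinning). The MI wells had a median depth of 15666 UMIs. Over the wells of sham day 14 the thinned share was 3.86%, with the copied replicates 2 and 7 both counted.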

How the results depend on the processing

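The IR day 14 against sham day 14 share difference kept its sign in all alternatives, from 11.3 points (at 2 or more Myh7 UMIs) to 28.8 (no thinning), and was 14.5 to 24.4 with an IR day 14 plate left out (lowest without replicate 3) and 19.3 to 21.7 with a sham day 14 plate left out. Against sham day 1 the range was 4.01 to 13.9 points with a plate left out, and against IR day 3 it was -11.5 to -1.04. Wells of at least 2000 UMIs gave 2.17 points against sham day 1 and -19.8 against IR day 3, and cardiomyocyte genes of at least 10% gave -15.8 against IR day 3. IR day 14 turned higher than IR day 3 by 0.0439 points at 2 or more Myh7 UMIs and by 2.10 with plates of at least 1 well, and the cause was not tested. In the paired contrast at IR day 14, 0 genes were called in the main fit and 0 with no replicate block; 1 was called with no filter on low counts, with pairs within 1.5-fold, with at least 2 Myh7 UMIs, with mitochondrial matching and with low fibroblast RNA (chosen after seeing the data), and 2 with IR day 14 plates alone and with wells of at least 2000 UMIs. Leaving out an IR day 14 plate gave 0 to 1 calls. With no replicate block 0 genes were called at sham day 14 and 0 at sham day 1, against 1 each; unmatched wells gave 0 at sham day 14 and 1 at IR day 3, and DESeq2 gave 0 at sham day 1. The difference between contrasts, 0 genes, became 2 without sham day 14 replicate 1 and 1 without replicate 5, alternatives chosen after seeing the data that leave 1 sham day 14 plate, assumed to vary like the other groups. Myh7-positive wells of IR day 14 against sham day 14 gave 1 call in the main fit, 5 with a replicate block, 2 with DESeq2, 2 with no filter, 0 against both sham groups, 36 with at least 10 wells per plate (1 sham plate left, assumed to vary like the other groups), and 1 to 15 with a plate left out (15 without sham day 14 replicate 1 and 9 without replicate 5, each against 1 sham plate under the same assumption). Wells of at least 2 Myh7 UMIs left no sham day 14 plate, so that alternative gave no value. Without matching, Myh7-positive wells had 438.5 more UMIs, 147 more genes, a mitochondrial share lower by 7.74 points (-7.74) and a spike-in ratio of -3.02. Of the values of single genes in the paired contrast, 324 kept their call and size, 56 moved, 10 gained a call and 2 lost it. A Myh7 UMI in a shallow well can be missed, so wells without one may hold the transcript.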

Other observations

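Regulators of the myosin switch were sparse in these wells. Of 24 genes on the list 23 were detected among the 131 Myh7-positive wells, with 1018 UMIs in all, and the genes with the most were Tead1 (198 UMIs, 3.40 per 10000 against 2.60 in wells without Myh7), a factor that binds the MCAT element, and the corepressor Ncor1 (133 UMIs, 2.28 against 1.81). The thyroid hormone receptor genes Thra and Thrb had 45 and 9 UMIs, and Sox6, a repressor of slow muscle genes, had 22. Only Tead1 and Ncor1 passed the filter, with log2 fold changes of 0.05 ± 0.46 and 0.43 ± 0.51 in the paired contrast. Immediate early and heat shock genes summed to 470 UMIs with Myh7 and 487 without, and Fos was at 0.223 against 0.640 per 10000. Conduction system markers had 48 UMIs over 131 wells and 73 over 207, with Hcn4 at 3 and Gja5 at 1 in the Myh7-positive wells.

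The nuclear RNA Malat1 did not follow the order of Myh7. Over the classes with 0, 1, 2 or 3, 4 to 9 and 10 or more Myh7 UMIs it stood at 35.2, 157, 110, 160 and 9.34 per 10000 in the pooled wells, and over the Myh7-positive wells of the 3 plates at 74.5, 68.1 and 205.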
